A study of Mus musculus with 6 samples.

Results

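The genes described here are 37 genes of DNA replication and S phase, taken by symbol from the deposited expression table. Of the 37 symbols, 36 had a row, each a single row, among the 33682 rows of the table. E2f1, the transcription factor that opens the S phase program, was not analysed here, and the row named Necab3, whose description carries the protein entry of rat E2F1, was not taken for it. RNA sequencing gave 6 libraries of neonatal rat heart cells of WT genotype, all kept in supernatant of bone marrow-derived mast cells (BMMCs) that had been given TNF-a. For 3 libraries the mast cells were ALOX5-/- (Alox5KO medium) and for 3 they were WT (WT medium). ALOX5 makes the first enzyme of leukotriene synthesis. The labels call the cells cardiomyocytes, while the series' design text speaks of a fibroblast culture. Cultures without mast cell medium, or with medium of resting mast cells, were not analysed here.

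DNA is copied once per cell cycle. Before S phase the origin recognition complex, Cdc6 and Cdt1 load the MCM helicase onto origins. In S phase Cdc45 and the GINS complex switch the helicase on, polymerases copy both strands with the clamp Pcna, and ribonucleotide reductase supplies the deoxynucleotides. Most of these genes are transcribed by E2F factors as cells pass from G1 into S phase, so their RNA is widely used as a readout of cycling cells. In bulk RNA, fewer cells in S phase and less RNA per S phase cell cannot be told apart.

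Values are FPKM, fragments scaled to gene length and to library size, and the reads behind them could be recovered. The libraries held between 13284088 and 15766187 recovered reads, and a 1 kilobase gene with 3 reads would have stood at 0.185 to 0.228 FPKM, a floor for counting error alone. The 12 fibroblast markers summed to between 11602 and 13423 FPKM with Alox5KO medium and between 12035 and 12989 FPKM with WT medium. In the comparison of all genes described below, 4 of them (33.3%) were called lower and 3 (25.0%) higher. The shares of all tested genes were 10.6% and 10.0%. The proteoglycan genes Dcn and Lum stood at 6.03% and 23.7% of their WT-medium means, Fn1 at 46.0% and Pdgfra at 46.6%, while Col3a1 stood at 178%, Vim at 174% and Tcf21 at 162%. The 11 cardiomyocyte markers in the table summed to between 91.6 and 115 FPKM with Alox5KO medium and between 28.0 and 51.0 FPKM with WT medium, most of it Tnnt2, with the ventricular light chain Myl2 at 0 throughout. Of 12 mast cell and leukocyte markers, Fcer1a, Ms4a2, Tpsb2, Mcpt4 and Cd52 were at 0 in every library. The sum of the 12 lay between 29.3 and 45.7 FPKM with Alox5KO medium and between 53.7 and 64.1 FPKM with WT medium. It was led by the protease gene Cpa3, at 43.2% of its WT-medium mean. Of the other tested ones, Cd68 stood at 56.9% and Lyz2 at 149%, and neither passed (adjusted p = 0.11 and 0.40, limma with Benjamini-Hochberg). The 7 endothelial markers summed to between 10.6 and 12.7 FPKM with Alox5KO medium and between 13.2 and 15.3 FPKM with WT medium. Nearly all of this was Egfl7, at 97.6% of its WT-medium mean, and Tek, at 60.8%. Cdh5, Kdr, Tie1 and Vwf averaged only 0.00896 to 0.0424 FPKM over the 6 libraries, and Emcn was at 0 throughout. The cardiomyocyte, leukocyte and endothelial sums did not overlap between the media, and single fibroblast and leukocyte markers moved both ways. The part of all these markers in the results below was not tested.

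All 36 genes were detected in every library, with at least 55 reads each. Their mean over the 6 libraries ran from 2.01 FPKM for the helicase subunit Cdc45 to 88.4 FPKM for the clamp Pcna. Their median of 9.97 FPKM lay near that of all tested genes, 10.6 FPKM. Pcna, Rrm2, Rrm1, Prim1 and Tk1 stood at the top of this order, and Cdc45, E2f8, Clspn and Gins2 at its foot. All 36 passed the filter of a mean of at least 1 FPKM and so were among the 12341 genes compared.

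**Figure D1:**
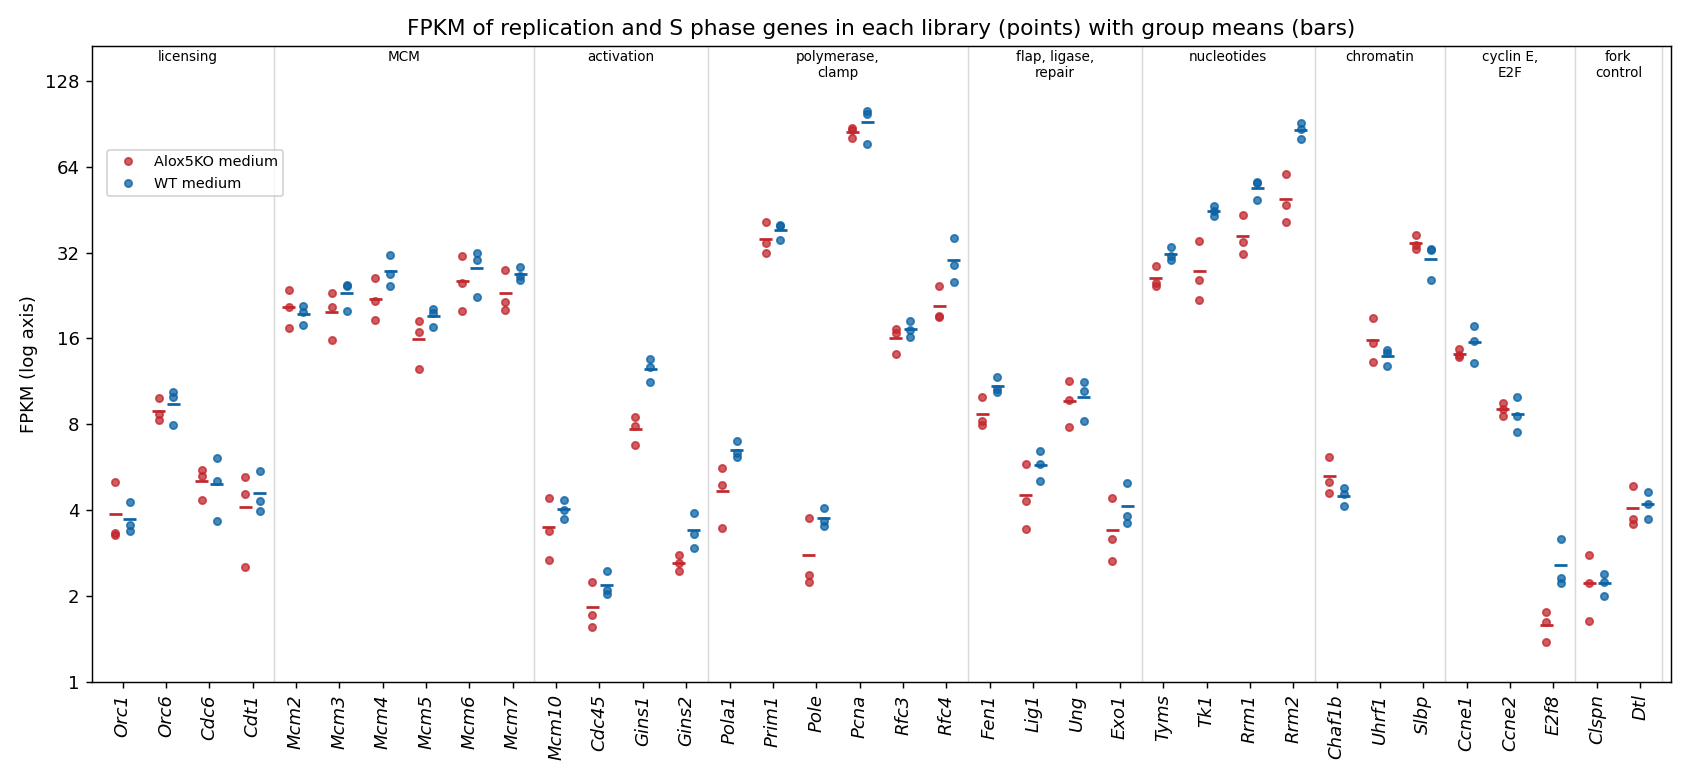
FPKM on a log axis of the 36 genes in each library, ordered by role, with Alox5KO medium (red) left of WT medium (blue); points are libraries and bars are means of 3. The groups stand apart downward for Gins1, Rfc4 and the 4 nucleotide genes, and most other pairs of groups overlap.

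The contrast asks which transcripts of the cells differ with the presence of Alox5 in the donors of the medium. Most replication genes did not pass the test, and the 5 that did were all lower with Alox5KO medium. They were Rrm2, Rrm1 and Tk1 of nucleotide supply, the GINS subunit Gins1 and the clamp loader subunit Rfc4, at 57.3% to 69.3% of their WT-medium means. Genes were called at a Benjamini-Hochberg adjusted p under 0.05 in limma, fitted on log2(FPKM + 1) over all 12341 genes. The share of all tested genes called lower was 10.6%, and 5 of 36 is 13.9%. The 5 calls became 7 without Alox5KO-medium replicate 2, 2 without Alox5KO-medium replicate 3, and 3 without Alox5KO-medium replicate 1 or WT-medium replicate 1 or 2, so their number is not set apart from the background here. None of the 36 was called higher, against 10.0% of all tested genes, and 0 of them reached an unadjusted p under 0.05 in that direction, against 15.7% of all tested genes. In the lower direction 9 of the 36 reached an unadjusted p under 0.05 (limma), against 16.7% of all tested genes. Nothing in the labels states that the replicates are separate cultures, so p-values reflect only how far these samples varied, perhaps for technical reasons.

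Estimates below 0 outnumbered those above. With the 5 called genes included, the log2 fold change was below 0 for 29 of the 36 genes, against 50.1% of all tested genes, and its median was -0.18, against -0.001 over all tested genes. Groups did not overlap for 11 genes, against 37.6% of all tested genes, of which 10 were lower and 1 higher, against 18.8% of all tested genes in each direction. Of the 31 genes not called, 24 were below 0, and 5 of these had groups that did not overlap. These genes vary together in the same cells, so such counts are a description without a test. For 34 of the 36 the 95% interval of the log2 fold change lay between -1 and 1, and for 27 it included 0.

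**Figure D2:**
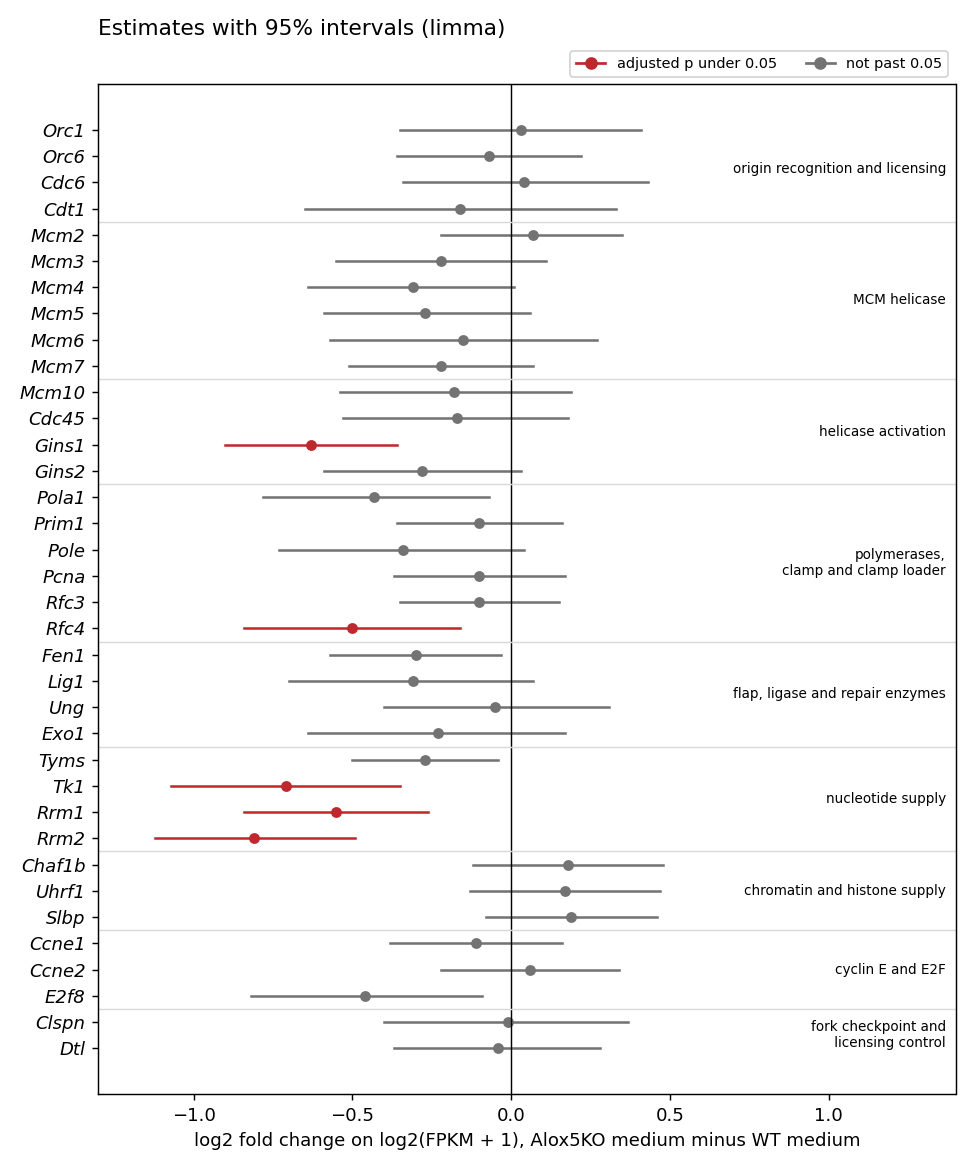
Log2 fold change on the log2(FPKM + 1) scale, Alox5KO medium minus WT medium, with its 95% interval (limma), for the 36 genes in order of role. The 5 genes called lower are red, and no interval lies wholly above 0.

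Nucleotide supply held 3 of the 5 calls. Rrm2, the regulated small subunit of ribonucleotide reductase, had 41.1, 60.2 and 47.0 FPKM with Alox5KO medium, against 91.4, 87.2 and 80.2 FPKM with WT medium. Every Alox5KO-medium library was below every WT-medium one. It averaged 49.4 ± 9.78 FPKM with Alox5KO medium and 86.3 ± 5.63 FPKM with WT medium (SD, n = 3 each), a log2 fold change of -0.81 ± 0.14 (standard error; adjusted p = 0.0033, limma with Benjamini-Hochberg). The gene (ENSRNOG00000054286) lies on chromosome 6 from 43884678 to 43889515, plus strand, in the table's coordinates. Rrm1, the large subunit of the same enzyme (chromosome 1, 167538263 to 167562688), had 35.0, 43.5 and 31.7 FPKM with Alox5KO medium, against 56.5, 56.4 and 49.0 FPKM with WT medium. Again the groups did not overlap, and the log2 fold change was -0.55 ± 0.13 (standard error; adjusted p = 0.015, limma with Benjamini-Hochberg). The call on Rrm1 was lost without Alox5KO-medium replicate 1 or 3 or WT-medium replicate 1 or 2, where limma with Benjamini-Hochberg gave adjusted p of 0.053, 0.056, 0.063 and 0.053.

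Rrm2 was more abundant than Rrm1 in every library, and the margin was narrower with Alox5KO medium. The ratio of their FPKM was 1.17, 1.38 and 1.48 with Alox5KO medium, against 1.62, 1.55 and 1.64 with WT medium, without overlap. This ratio was chosen after its values were seen and was not tested.

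Tk1, the thymidine kinase of the salvage pathway (chromosome 10, 106817601 to 106828884), had 21.8, 35.2 and 25.7 FPKM with Alox5KO medium, against 44.9, 46.7 and 42.9 FPKM with WT medium. The WT-medium values were close together and all above the Alox5KO-medium ones, of which replicate 2 was the highest. The log2 fold change was -0.71 ± 0.16 (standard error; adjusted p = 0.013, limma with Benjamini-Hochberg), and without Alox5KO-medium replicate 3 the adjusted p was 0.057. Tyms, the thymidylate synthase of the pathway that makes dTMP anew, had 25.1, 28.7 and 24.5 FPKM with Alox5KO medium, against 30.1, 33.6 and 31.1 FPKM with WT medium. Its groups did not overlap either, but the difference of -0.27 did not pass (adjusted p = 0.094, limma with Benjamini-Hochberg; 95% interval -0.50 to -0.04).

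Among the factors that turn the loaded helicase on, Gins1 was called lower. Gins1, a subunit of the GINS complex (chromosome 3, 146695344 to 146716816), had 6.79, 7.91 and 8.46 FPKM with Alox5KO medium, against 13.5, 11.3 and 12.7 FPKM with WT medium. The groups stood apart, and the log2 fold change was -0.63 ± 0.12 (standard error; adjusted p = 0.0052, limma with Benjamini-Hochberg). Gins2, its partner in the complex, had 2.44, 2.61 and 2.77 FPKM with Alox5KO medium, against 3.31, 3.92 and 2.95 FPKM with WT medium. It did not overlap between groups, yet did not pass the test, with a difference of -0.28 (adjusted p = 0.20, limma with Benjamini-Hochberg). Cdc45, the third part of the active helicase, averaged 1.83 ± 0.351 FPKM with Alox5KO medium and 2.19 ± 0.229 FPKM with WT medium (SD, n = 3 each). Mcm10, which helps start unwinding, averaged 3.50 ± 0.874 FPKM with Alox5KO medium and 4.03 ± 0.313 FPKM with WT medium (SD, n = 3 each), and for both Cdc45 and Mcm10 the groups overlapped.

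Of the polymerase, clamp and clamp loader genes, Rfc4 was called lower. Rfc4, a small subunit of the loader that opens the clamp (chromosome 11, 81358592 to 81373043), had 19.2, 24.5 and 19.0 FPKM with Alox5KO medium, against 36.0, 29.0 and 25.2 FPKM with WT medium. The nearest libraries of the groups, Alox5KO-medium replicate 2 and WT-medium replicate 3, almost met. The log2 fold change was -0.50 ± 0.15 (standard error; adjusted p = 0.043, limma with Benjamini-Hochberg). In 9 of 16 alternatives its adjusted p, after rounding, was 0.05 or more. Among them was leaving out Alox5KO-medium replicate 1 or 3 or WT-medium replicate 1 or 2. There limma with Benjamini-Hochberg gave adjusted p of 0.13, 0.14, 0.16 and 0.094. With limma-voom on the recovered reads the adjusted p rounded to 0.05 and was a call before rounding. Rfc3, another small subunit of the same loader, averaged 16.0 ± 1.71 FPKM with Alox5KO medium and 17.2 ± 1.12 FPKM with WT medium (SD, n = 3 each), with a difference of -0.10 (95% interval -0.35 to 0.15).

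Pcna, the sliding clamp and the most abundant of the 36, had 87.8, 86.4 and 80.9 FPKM with Alox5KO medium, against 98.4, 100.3 and 76.8 FPKM with WT medium. WT-medium replicate 3 was the lowest of all 6 libraries, so the groups overlapped, and the difference was -0.10 (adjusted p = 0.61, limma with Benjamini-Hochberg; 95% interval -0.37 to 0.17). Prim1, the catalytic primase subunit, averaged 35.9 ± 4.77 FPKM with Alox5KO medium and 38.4 ± 2.54 FPKM with WT medium (SD, n = 3 each). Pola1, the catalytic subunit of the polymerase that extends the primers, had 4.89, 5.60 and 3.46 FPKM with Alox5KO medium, against 6.34, 7.01 and 6.14 FPKM with WT medium. Its groups did not overlap, and the difference of -0.43 did not pass (adjusted p = 0.095, limma with Benjamini-Hochberg). Pole, the catalytic subunit of the leading-strand polymerase, averaged 2.79 ± 0.832 FPKM with Alox5KO medium and 3.74 ± 0.279 FPKM with WT medium (SD, n = 3 each) and did not pass either. Without Alox5KO-medium replicate 2 both were called lower, Pola1 at an adjusted p of 0.047 and Pole at 0.041 (limma, Benjamini-Hochberg).

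None of the licensing genes passed the test. Orc1 and Orc6 are subunits of the origin recognition complex, and Cdc6 and Cdt1 bring the helicase to it. Orc6, the most abundant of these, had 8.67, 9.88 and 8.26 FPKM with Alox5KO medium, against 10.4, 9.95 and 7.96 FPKM with WT medium, and the groups overlapped. The log2 fold changes of these licensing genes ran from -0.16 for Cdt1 to 0.04 for Cdc6. Cdt1 varied most, at 2.53, 5.21 and 4.57 FPKM with Alox5KO medium and 4.32, 5.47 and 3.96 FPKM with WT medium, and its interval reached from -0.65 to 0.33.

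The 6 subunits of the MCM helicase, Mcm2 to Mcm7, lay within a narrow band and none passed the test. Their mean was 17.9, 25.0 and 20.5 FPKM with Alox5KO medium and 24.7, 26.2 and 21.3 FPKM with WT medium. Alox5KO-medium replicate 2 thus stood among the WT-medium libraries. Within a library the most abundant subunit was 1.48 to 1.73 times the least abundant with Alox5KO medium and 1.47 to 1.58 times with WT medium, and Mcm5 was the least abundant in all 6. Mcm6, with the highest mean of these subunits, had 20.0, 31.0 and 25.1 FPKM with Alox5KO medium, against 30.2, 32.0 and 22.4 FPKM with WT medium. The log2 fold changes ran from -0.31 for Mcm4 to 0.07 for Mcm2. The difference of Mcm4 had a 95% interval of -0.64 to 0.01 (adjusted p = 0.16, limma with Benjamini-Hochberg). Mcm7 hosts the microRNA genes Mir25, Mir93 and Mir106b on its strand, so reads there could belong to either.

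The genes that finish and mend new strands did not pass. Fen1, the nuclease that trims Okazaki fragments, had 8.22, 10.00 and 7.94 FPKM with Alox5KO medium, against 10.4, 11.8 and 10.6 FPKM with WT medium. Its groups did not overlap, with a difference of -0.30 (adjusted p = 0.11, limma with Benjamini-Hochberg). Lig1, the ligase that seals the fragments, averaged 4.51 ± 1.198 FPKM with Alox5KO medium and 5.77 ± 0.699 FPKM with WT medium (SD, n = 3 each). Exo1, an exonuclease of mismatch repair, averaged 3.40 ± 0.899 FPKM with Alox5KO medium and 4.14 ± 0.746 FPKM with WT medium (SD, n = 3 each). For Ung, which removes uracil from DNA, the difference was -0.05 (95% interval -0.40 to 0.31).

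The chromatin genes were the role in which every estimate was above 0, though none passed. Slbp, which binds the stem-loop of histone mRNAs, had 34.03, 32.98 and 37.01 FPKM with Alox5KO medium, against 32.70, 32.96 and 25.65 FPKM with WT medium. The groups did not overlap by the narrowest of margins, and the difference was 0.19 (adjusted p = 0.31, limma with Benjamini-Hochberg). Chaf1b, a subunit of the histone chaperone CAF-1, averaged 5.25 ± 0.787 FPKM with Alox5KO medium and 4.49 ± 0.320 FPKM with WT medium (SD, n = 3 each). Uhrf1, which directs maintenance DNA methylation to new strands, averaged 15.9 ± 2.80 FPKM with Alox5KO medium and 13.8 ± 0.937 FPKM with WT medium (SD, n = 3 each).

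Among the regulators, the cyclin E genes did not pass the test. Ccne1, which with Cdk2 drives entry into S phase, had 13.7, 14.1 and 14.7 FPKM with Alox5KO medium, against 15.6, 17.7 and 13.1 FPKM with WT medium, and the groups overlapped. Ccne2, its paralog, averaged 9.03 ± 0.503 FPKM with Alox5KO medium and 8.68 ± 1.24 FPKM with WT medium (SD, n = 3 each), and it overlaps Ints8 on the other strand, so its reads are uncertain. E2f8, an E2F repressor late in S phase, had 1.38, 1.62 and 1.76 FPKM with Alox5KO medium, against 2.22, 3.18 and 2.31 FPKM with WT medium. Its groups did not overlap, on 194 reads with Alox5KO medium and 280 with WT medium. E2f8 stood at 61.7% of its WT-medium mean, and the difference of -0.46 did not pass (adjusted p = 0.079, limma with Benjamini-Hochberg). The log2(FPKM + 1) scale understates changes at so low a level. With a pseudocount of 0.1 the difference was -0.65 and did not pass either (adjusted p = 0.078, limma with Benjamini-Hochberg).

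Clspn and Dtl had estimates close to 0. Clspn, which carries the checkpoint signal at stalled forks, averaged 2.21 ± 0.575 FPKM with Alox5KO medium and 2.21 ± 0.200 FPKM with WT medium (SD, n = 3 each), with a 95% interval of the difference of -0.40 to 0.37. Dtl, which marks Cdt1 for breakdown in S phase, had 3.57, 4.87 and 3.73 FPKM with Alox5KO medium, against 4.21, 4.64 and 3.71 FPKM with WT medium.

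The genes moved together between libraries of a group. Alox5KO-medium replicate 2 was the highest of its group for 29 of the 36 genes, against 32.5% of all tested genes, and 34 lay above their group's mean there. WT-medium replicate 3 was the lowest of its group for 29 of the 36, against 39.5% of all tested genes, and WT-medium replicate 2 the highest for 27, against 32.1%. On the log2(FPKM + 1) scale the median deviation from the mean of all libraries was -0.21, 0.10 and -0.13 with Alox5KO medium, against 0.09, 0.20 and -0.02 with WT medium. The groups therefore overlapped on this summary through Alox5KO-medium replicate 2, which lay above WT-medium replicates 1 and 3. Alox5KO-medium replicate 2 was also the deepest library, with 15766187 reads. With WT medium, replicate 2 was the shallowest of all libraries, with 13284088 reads, and replicate 3 the deepest of its group, with 14389010. The part of depth in this was not tested. The median coefficient of variation was 17.4% with Alox5KO medium and 10.8% with WT medium, against 12.4% and 10.5% for all tested genes in the same media.

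**Figure D3:**
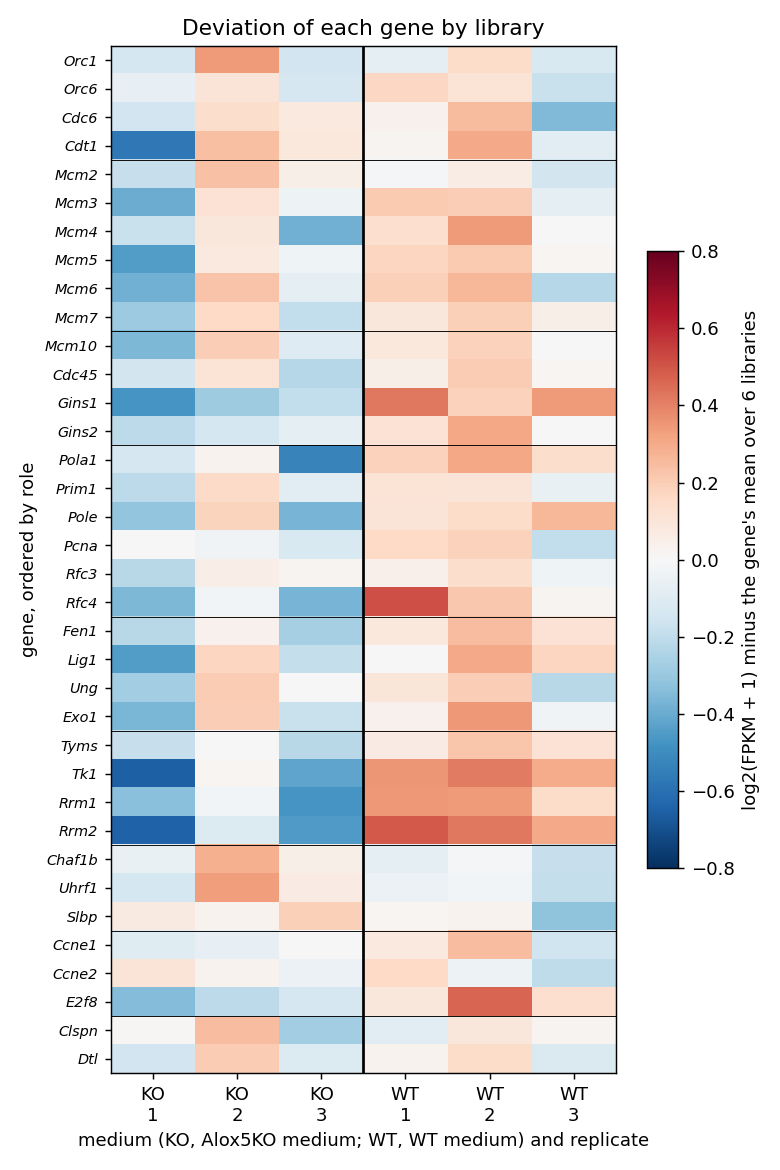
Deviation of each gene's log2(FPKM + 1) from its mean over the 6 libraries, as colour, with the Alox5KO-medium libraries left of the WT-medium ones and genes in order of role. Alox5KO-medium replicate 2 is above replicates 1 and 3 for most genes. The media separate downward for 10 genes, among them Rrm1, Rrm2, Tk1 and Gins1, and upward for 1, against 18.8% of all tested genes in each direction.

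Of 41 other tested genes of replication complexes 8 were called lower (19.5%, against 10.6% of all tested genes) and 0 higher, with a median log2 fold change of -0.27. Gmnn, the geminin that blocks relicensing by binding Cdt1, had 11.6, 12.8 and 11.7 FPKM with Alox5KO medium, against 23.2, 21.7 and 19.2 FPKM with WT medium, a log2 fold change of -0.78 (adjusted p = 9.0e-04, limma with Benjamini-Hochberg). The clamp loader subunit Rfc2 fell by 0.51, the RNase H2 subunit Rnaseh2b by 0.52 and the polymerase epsilon subunit Pole3 by 0.41. Without Alox5KO-medium replicate 1 or 3 the calls in this list numbered 4 each, and without WT-medium replicate 1 or 2 they numbered 2 each.

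Of 16 other nucleotide and chromatin supply genes 2 were called lower and 0 higher, with a median of -0.31; the 2 are 12.5%, near the 10.6% of all tested genes. They were the histone chaperone Asf1b, which fell by 0.81, and the nucleotide pyrophosphatase Dctpp1, which fell by 0.66. The calls in this list numbered 6 with the replicate block, 7 without Alox5KO-medium replicate 2, 5 without WT-medium replicate 3, and 1 without Alox5KO-medium replicate 1 or 3 or WT-medium replicate 1. Of 21 fork repair and checkpoint genes 5 were called lower (23.8%, against 10.6% of all tested genes) and 0 higher, with a median of -0.33. Fancd2 and Fanci, partners in crosslink repair, fell by 0.97 and 0.78, the checkpoint kinase Chek2 by 0.67 and the deubiquitinase Usp1 by 0.65.

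Of 17 other G1/S and E2F genes 3 were called lower (17.6%) and 1 higher (5.88%), with a median of -0.09, against 10.6% and 10.0% of all tested genes. The lower calls numbered 1 without Alox5KO-medium replicate 1 or 3 or WT-medium replicate 1 or 2. E2f6, a repressor of the E2F family, had 24.2, 25.9 and 24.3 FPKM with Alox5KO medium, against 14.0, 15.8 and 12.9 FPKM with WT medium, a log2 fold change of 0.76 (adjusted p = 8.5e-04, limma with Benjamini-Hochberg). The pocket protein gene Rbl2 fell by 0.55, the kinase subunit Cks1b by 0.54 and cyclin A2, Ccna2, by 0.49, while Myc had a difference of -0.18 that did not pass (adjusted p = 0.40, limma with Benjamini-Hochberg).

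Among 10 D cyclins and CDK inhibitors 2 were called higher and 1 lower, with a median of 0.09, where 10.0% of all tested genes were called higher and 10.6% lower. Cdkn2b, the inhibitor p15 of the kinases Cdk4 and Cdk6, had 12.1, 11.6 and 12.1 FPKM with Alox5KO medium, against 5.38, 4.15 and 5.86 FPKM with WT medium, a log2 fold change of 1.09 (adjusted p = 4.4e-04, limma with Benjamini-Hochberg). Ccnd2, a D cyclin, rose by 0.33 and Cdkn2c, another inhibitor of the same kinases, fell by 0.53. The calls of higher genes numbered 1 without the filter on low values, with the replicate block, and without Alox5KO-medium replicate 2 or 3 or WT-medium replicate 1 or 2. Ccnd1 and Cdkn1a, the cyclin D1 and p21 genes, had differences of -0.04 and 0.09 that did not pass (adjusted p = 0.85 and 0.62, limma with Benjamini-Hochberg).

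Mitosis genes, which act after replication is complete, were called far more often. Of 37 tested mitosis genes 32 were called lower (86.5%, against 10.6% of all tested genes) and 0 higher (against 10.0%). Their median log2 fold change was -0.76. The replication genes had 5 of 36 called lower and a median of -0.18, and this difference between lists was not tested. Top2a, the topoisomerase that untangles sister chromatids, had 21.2, 28.6 and 17.5 FPKM with Alox5KO medium, against 49.5, 48.7 and 50.2 FPKM with WT medium, a log2 fold change of -1.13 (adjusted p = 0.0011, limma with Benjamini-Hochberg). The motility receptor gene Hmmr fell by 1.09, the spindle protein gene Nusap1 by 0.94 and the survivin gene Birc5 by 0.94. Mki67, the Ki-67 gene, had 7.86, 13.5 and 4.67 FPKM with Alox5KO medium, against 13.6, 14.6 and 18.7 FPKM with WT medium, and did not pass (adjusted p = 0.14, limma with Benjamini-Hochberg). Alox5KO-medium replicate 2 was the highest of its group for 35 of the 37 mitosis genes, against 32.5% of all tested genes. The median deviation from the mean of all libraries was -0.51, -0.13 and -0.46 with Alox5KO medium, against 0.37, 0.36 and 0.37 with WT medium, so that here the groups stood apart.

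**Figure D4:**
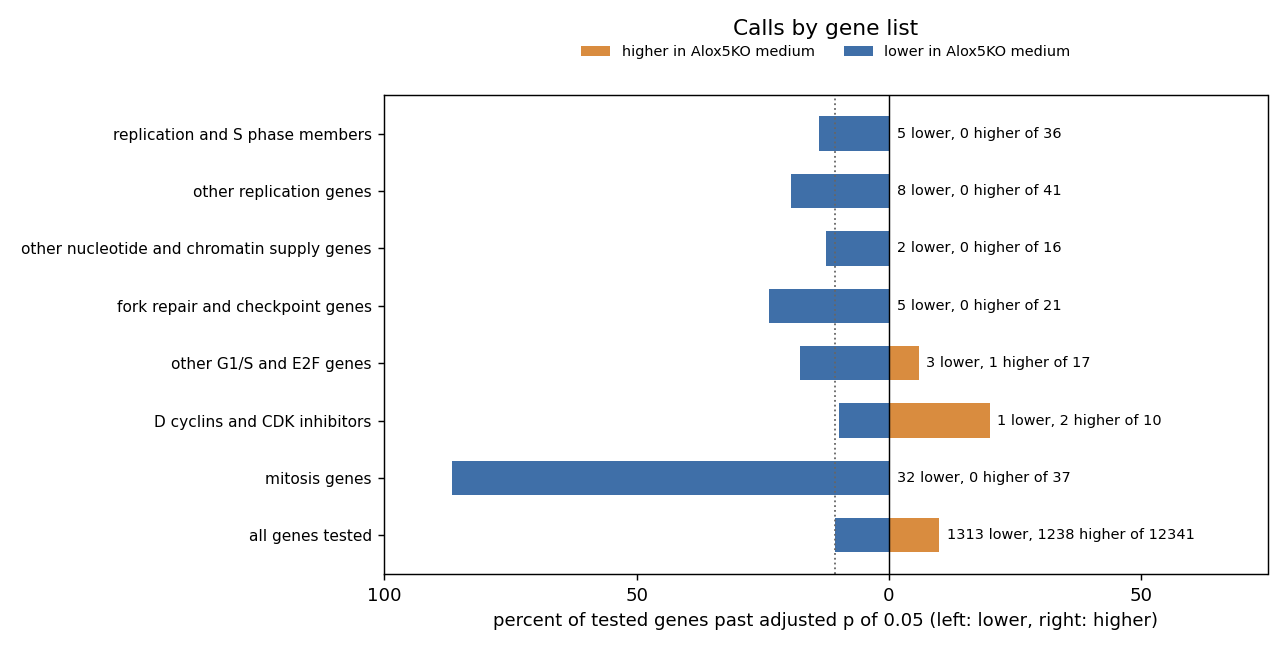
Percent of tested genes past an adjusted p of 0.05 in limma, lower (left) or higher (right) with Alox5KO medium, for the replication and S phase genes, related lists and all genes; the dotted line marks the 10.6% of all tested genes called lower. The replication genes stand at 13.9% and the mitosis genes at 86.5%.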

How the data were processed

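The authors deposited FPKM values, 1 column per sample, with each gene's length, position and symbol, per the file headers. Per the submitters' processing notes, which name no roles, the tools were featureCounts 1.5.0-p3, HISAT2 2.0.5, fastp, DESeq2 1.20.0 and CASAVA 1.8, and the build mm10. The labels give mouse as the organism, yet 32883 rows carry rat Ensembl identifiers and 0 carry mouse ones. The rat build and the strand setting are not given in the sources used here. Genes that overlap others or have near-identical copies are therefore uncertain. The mouse reference was not used. Reads were recovered by dividing FPKM times gene length by the smallest step of each column, and 100% of values above 0 came out whole within 0.05 reads.

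Groups and replicate numbers came from the sample titles. The 12341 genes averaging 1 FPKM or more were compared on log2(FPKM + 1), a scale that understates changes of low genes, with limma 3.58.1 in R 4.3.3 (trend, robust prior, two-sided, Benjamini-Hochberg at 0.05, no replicate block). Simulated reads for 12341 genes in this contrast were used to check the fit. It found 45 of 100 genes set to a 1.5-fold change and 76 of 100 set to a 2-fold change, and it wrongly called 9 of 12141 genes left alone. Members and lists were chosen with earlier results of these data known. All members may be named. Per-library values are given for called members, for the most abundant member of a role without calls, and for others chosen after their values were seen. From each related list up to 4 called genes with the smallest p are named, plus Cdkn1a, Ccnd1, Myc and Mki67. Within groups, libraries correlated at 0.977 to 0.986 (Pearson, across genes), and no pair of libraries agreed within sampling noise. Alternatives were other pseudocounts, filters, scalings, priors, the replicate block, leaving out each library, and limma-voom on the recovered reads, chosen after seeing the data.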

Additional observations from a re-analysis of the deposited data

How the results depend on the processing

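Over 16 alternatives the replication genes called lower numbered 4 to 5 where all libraries were kept and 2 to 7 with 1 library left out (3 without Alox5KO-medium replicate 1, 2 without Alox5KO-medium replicate 3 and 3 without WT-medium replicate 1 or 2), and 0 were called higher in any of the 16. Rrm2 and Gins1 were called in all 16, Tk1 in 15 and Rrm1 in 12. Rfc4 had an adjusted p that rounded to under 0.05 in 7, within a range of 0.022 to 0.16 (limma, Benjamini-Hochberg). The median log2 fold change of the members ran from -0.31 to -0.10. No call changed sign, and 26 of 36 genes kept their sign in every alternative; the other 10 crossed 0 at least once without a call. With 1 library left out, all genes called higher numbered 791 to 1226 and lower 862 to 1325. Lower calls in the same fits numbered 2 to 9 for other replication genes, 1 to 7 for other nucleotide and chromatin supply genes, 1 to 4 for other G1/S and E2F genes, 4 to 7 for fork repair genes and 27 to 37 for mitosis genes, and D cyclins and CDK inhibitors called higher numbered 1 to 2. Other replication genes called lower numbered 4 with TPM scaling, where the cause was not tested, and 4 without the filter on low values, where 19519 genes were tested. A lone D cyclin or inhibitor was called higher (1) without that filter and with the replicate block, and other nucleotide and chromatin supply genes called lower numbered 6 with the replicate block; the cause was not tested. Deviations from the group means correlated at -0.0963, 0.105 and 0.167 for the same replicate numbers 1, 2 and 3, against -0.192 to 0.101 for unlike numbers. With 3 libraries a group these values cannot decide whether the replicate number pairs the samples. With the replicate block the replication genes called lower numbered 5, and all genes called numbered 2652, against 2551 without it. The planned edgeR and DESeq2 fits on the recovered reads were not run, and limma-voom on those reads was the count-based alternative used. There the replication genes called lower numbered 5, counting Rfc4, whose adjusted p (limma-voom, Benjamini-Hochberg) was under 0.05 only before rounding. At this depth and with 3 libraries a group, the simulation recovered 45 of 100 genes changed by 1.5-fold. It left 12141 of 12341 genes unchanged, while 2551 were called in these data, so its recovery may not carry over to the members. A missing call alone does not exclude a 1.5-fold change. The interval of the log2 fold change differed between members not called. It reached a 1.5-fold decrease for Cdt1 (-0.65 to 0.33) but not for Pcna (-0.37 to 0.17).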
